A study of Mus musculus with 12 samples.

Results

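Tumor cells carrying Rac1 A159V were compared with WT tumor cells from mice that received anti-PD1. The 3 A159V anti-PD1 and the 3 WT anti-PD1 columns of the raw count table were taken, 6 of the 12 samples of the series, and all expressed genes were examined. The cells come from MC38, a mouse colon adenocarcinoma line that grows in C57BL/6 mice. In the study, WT or A159V cells were injected subcutaneously into mice 6 to 8 weeks old, and 100 µg of anti-PD1 was given at 3-day intervals starting on day 3. Day 13 tumors were dissociated and depleted of other cells with a magnetic Tumor Cell Isolation Kit. PolyA RNA was read in pairs, and each sample came from a different mouse. The A159V cells are a homozygous knock-in at the endogenous Rac1 locus, and the study used 1 clone, clone 9, unless it states otherwise. The mutation therefore cannot be told apart from other differences of that clone. Read counts per gene do not show the edited base. Total counts were 18888677, 14053582 and 16839346 in WT replicates 1 to 3 and 19061351, 18700827 and 18593377 in A159V replicates 1 to 3. In what follows, WT and A159V samples are the anti-PD1 samples unless IgG, the isotype control, is named. CPM are library-scaled counts (TMM), and differences are A159V minus WT on the log2 scale.

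Rac1 is a small GTPase that switches between a GDP-bound and a GTP-bound form. Guanine nucleotide exchange factors of the Tiam, Vav and Dock families load it with GTP, and active Rac1 then engages the WAVE complex, which drives branched actin through Arp2/3, and the PAK kinases, which act on cofilin through the LIM kinases. PD-1 is an inhibitory receptor of T cells, and its blockade frees T cells to kill with perforin and granzymes and to release interferon-gamma, which tumor cells sense through a receptor of the JAK-STAT pathway.

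Under anti-PD1, A159V tumor cell samples carried far fewer T and NK cell transcripts than the WT samples. Most called genes of the immediate early, collagen and metalloproteinase lists were lower, and most called genes of the amino acid stress, glutathione and replication lists were higher. Of the 14340 genes tested, 3075 (21.4%) were DEGs, which differ by more than 0.3 in size (log2) and pass 0.05 after adjustment. With TMM scaling 1613 of them were higher in A159V (11.2% of genes tested) and 1462 lower (10.2%). RLE scaling shifted this split to 1123 higher against 1672 lower calls, and the upper-quartile method to 931 against 1788. DESeq2 called 1451 higher and 1953 lower. Lower genes moved further, since 981 lower and 345 higher DEGs passed a log2 difference of 1 in size, and 473 and 109 passed 2. The median over all genes tested was 0.06. The 3 values of each group did not overlap for 8049 genes (56.1% of genes tested) and for 3051 of the DEGs. Pearson's r across genes, which are not independent replicates, was 0.988 to 0.990 among A159V samples, 0.989 to 0.990 among WT samples and 0.947 to 0.963 between them.

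These counts depended on single samples, and the genotypes also differed in leukocyte transcripts. Leaving out WT replicate 2 gave 1983 DEGs, leaving out WT replicate 3 gave 1519, and leaving out A159V replicate 3 gave 1672. The higher count was 1016 without WT replicate 1, 892 without WT replicate 2, 643 without WT replicate 3, 1022 without A159V replicate 1 and 754 without A159V replicate 3. The lower count was 876 without WT replicate 3, 918 without A159V replicate 3 and 2351 without WT IgG replicate 1. The 6 samples fitted alone gave 2352 higher and 2968 lower. A leukocyte score, the mean log2 CPM of 20 markers relative to the mean over all 12 samples, was 1.08, 1.52 and 1.07 in WT and −0.89, −0.78 and −0.82 in A159V samples. The score parted the genotypes without overlap, so in a fit that holds both, the score and the genotype can hardly be told apart. With the score in the model, edgeR called 0 higher and 2 lower genes, Nr4a3 and Grem1 (no other tool was run with it), with 558 genes at an unadjusted p under 0.05. In bulk samples, fewer cells of a type and less RNA per cell cannot be told apart. The part of these leukocyte transcripts in the results on tumor cell genes was not tested.

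In IgG-treated mice, which share no sample with this comparison, 4010 genes (28.0% of genes tested) were DEGs between A159V and WT. The genes called in the same direction under both treatments numbered 1633, which is 53.1% of the anti-PD1 DEGs and 40.7% of the IgG DEGs. Of these, 881 were higher and 752 lower in A159V, and 8 DEGs had opposite directions. Another 1434 genes passed only under anti-PD1, which does not show that they differ between the treatments. The difference between the treatments, tested as an interaction in edgeR, passed for 1 gene (0.00697% of genes tested), Errfi1, and 2517 genes had an unadjusted p under 0.05. DESeq2 called 295 interaction genes, edgeR without the filter 37 and with upper-quartile scaling 0, so Errfi1 is not shown to be the only such gene. The IgG count was 2669 without A159V IgG replicate 1 and 2578 without A159V IgG replicate 2. The interaction count was 0 without any 1 of the anti-PD1 samples or without A159V IgG replicate 1, and 1182 without WT IgG replicate 4.

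The label tumor cells was checked against markers of other cells. For each list of at least 10 tested genes that was not called in full, the percent called is given, to be read against the 21.4% of all genes tested. Of the 23 tested T and NK cell genes (30 on the list), 0 were higher and 23 lower in A159V, median log2 difference −4.81. With the genes at 0 in A159V set to their bound, that median was −4.10, and under IgG the fitted median was −2.05. Their summed level was 49.4, 81.3 and 50.6 CPM in WT and 6.59, 4.62 and 7.29 CPM in A159V samples, and Gzmb was the most abundant per length. Every WT sample lay far above every A159V sample, and WT replicate 2 was the highest. Genes this low pass the filter mainly through the WT samples, and the sum covers these same genes, so the selection favors lower calls and a lower sum. Among defining markers, Cd3e, a chain of the T cell receptor complex, had 16, 24 and 8 counts in WT and 0 in all A159V samples. Cd8a, the coreceptor of cytotoxic T cells, had 1.71, 5.70 and 2.004 CPM in WT and 0.0545, 0 and 0 CPM in A159V samples, a ratio of WT to A159V of 163 (95% counting interval 28.8 to 6468, adjusted p = 0.000569). The ratio rests on 1 A159V count, and the fitted log2 difference, −6.96, was −6.23 without WT replicate 2 and −8.84 without A159V replicate 1. Ncr1, an NK cell receptor, had 12, 7 and 6 counts in WT and 1, 0 and 0 in A159V samples. These defining markers were at or near 0 in A159V and present in each WT sample. Gzmb, a granzyme of cytotoxic cells, had 10.5, 16.2 and 10.8 CPM in WT and 0.109, 0.0532 and 0.556 CPM in A159V samples, a log2 difference of −5.68 (adjusted p = 0.00110). Gzmb stood at −7.15 without A159V replicate 3. Prf1, the pore-forming perforin, had 4.14, 5.50 and 3.45 CPM in WT and 0.109, 0.0532 and 0.223 CPM in A159V samples, a log2 difference of −5.02 (adjusted p = 0.00174). Prf1 stood at −5.63 without A159V replicate 3. Il2rb, a receptor chain for IL-2 and IL-15, had 8.64, 13.1 and 8.74 CPM in WT and 2.18, 0.744 and 2.45 CPM in A159V samples, a log2 difference of −2.50 (adjusted p = 0.00256). Both killing genes were close to 0 in every A159V sample, and the groups did not overlap for any of the 3. Trbc1 and Trbc2, which encode constant parts of the T cell receptor and share sequence, had 0 counts in all A159V samples and were at least 7.12-fold and 9.46-fold lower against the floor of 3 counts per library. 19 of the 23 lower T and NK cell genes held in all 12 fits without 1 sample.

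Wider leukocyte markers gave a mixed picture. Of the 20 tested pan-leukocyte and lineage markers (30 on the list), 0 were higher and 13 lower in A159V, 65% called, median log2 difference −2.49. Some of them, such as Nkg7, Cd3d and Klrk1, are also on the T and NK cell list, so this is no separate check. Markers near 0 in A159V, such as Ptprc, pass the filter mainly through the WT samples, so the selection favors lower calls here too. Ptprc, CD45, the surface phosphatase that marks leukocytes, had 9.01, 14.2 and 7.46 CPM in WT and 0.0545, 0.0532 and 0.278 CPM in A159V samples, a log2 difference of −6.25 (adjusted p = 0.000357). Ptprc stood at −7.39 without A159V replicate 3. The groups did not overlap. The summed level of the pan-leukocyte list was 90.6, 111 and 75.5 CPM in WT and 53.2, 58.3 and 58.97 CPM in A159V samples, and its most abundant gene per length, Cd68, had 37.4, 40.8 and 25.8 CPM in WT and 34.2, 36.9 and 39.7 CPM in A159V samples (difference 0.09, adjusted p = 0.761). Cd68, a lysosomal protein of macrophages that other cells also make, overlapped between the groups. 11 of the 13 lower pan-leukocyte markers held in all 12 fits without 1 sample. Of the 15 tested macrophage and monocyte genes (22 on the list), 0 were higher and 7 lower in A159V, 46.7% called, median log2 difference −1.36. Their summed level was 83.4, 85.1 and 67.7 CPM in WT and 72.95, 73.1 and 75.3 CPM in A159V samples. The defining macrophage marker Adgre1 had 2, 2 and 2 counts in WT and 1, 0 and 0 in A159V samples, and Csf1r had 7, 4 and 8 and 7, 2 and 5. Both were near 0 throughout. Over all samples of a group, Ccr2 had 92 counts in WT and 3 in A159V, and Fcgr1 had 36 and 3. Such genes pass the filter mainly through the WT samples, so the selection favors lower calls in this list as well. 6 of the 7 lower macrophage genes held in all 12 fits without 1 sample. Of the 6 tested B cell genes (11 on the list), 2 were higher and 2 lower in A159V, median log2 difference 0.25. The counts were 1 and 1 without A159V replicate 2, where Cd22, higher, and Ighm, lower, lost their calls. Cd22 lost its call without A159V replicate 2 (adjusted p up to 0.0542). Ighm stood at −4.78 without A159V replicate 1. Ighm lost its call without WT replicate 3 or A159V replicate 2 or 3 (adjusted p up to 0.0606). Ms4a1, which encodes CD20, had 0 counts in all 6 samples. The summed level of the tested B cell genes was 16.05, 14.5 and 17.5 CPM in WT and 17.87, 27.3 and 21.1 CPM in A159V samples. Cd79a was the most abundant of them per length. Each A159V sum lay above each WT sum, unlike the pan-leukocyte sums, though A159V replicate 1 was close to WT replicate 3. Of the 3 tested neutrophil genes (10 on the list), 1 was higher and 1 lower in A159V, median log2 difference 0.23. Ly6g was at 0 in all 6 samples. Of the 6 tested dendritic cell genes (9 on the list), 0 were higher and 2 lower in A159V, median log2 difference −0.27.

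Stromal and epithelial markers completed this check. Of the 16 tested fibroblast and pericyte genes, 1 was higher and 8 lower in A159V, 56.2% called, median log2 difference −1.62. Their summed level was 824, 1098 and 1704 CPM in WT and 282, 311 and 377 CPM in A159V samples, with Dcn, a matrix proteoglycan, the most abundant per length. Dcn had 229.9, 260.1 and 403 CPM in WT and 56.2, 103 and 86.8 CPM in A159V samples, a log2 difference of −1.86 (adjusted p = 0.00120). Pdgfrb, a growth factor receptor of pericytes and fibroblasts, had 40.5, 40.5 and 76.2 CPM in WT and 11.9, 22.6 and 18.5 CPM in A159V samples, a log2 difference of −1.57 (adjusted p = 0.00647). Pdgfra, the related receptor of fibroblasts, had 69.4, 61.7 and 96.5 CPM in WT and 60.97, 58.4 and 60.6 CPM in A159V samples, a log2 difference of −0.34 (adjusted p = 0.404). Dcn and Pdgfrb did not overlap between the groups, and Pdgfra, which did not pass, stood above 50 CPM in every sample. 0 of 1 higher and 7 of the 8 lower fibroblast genes held in all 12 fits without 1 sample. Acta2, smooth muscle actin, was the higher one (2.20). Acta2 lost its call without WT replicate 3 or A159V replicate 3 (adjusted p up to 0.0755). Of the 3 tested endothelial genes (10 on the list), 0 were higher and 2 lower in A159V, median log2 difference −0.99. The lower genes were Pecam1 and Cdh5. Pecam1 lost its call without WT replicate 2 or 3 or A159V IgG replicate 1 or 2 or A159V replicate 1, 2 or 3 (adjusted p up to 0.164). Cdh5 lost its call without WT replicate 1, 2 or 3 or A159V replicate 1, 2 or 3 (adjusted p up to 0.122). Of the 5 tested epithelial and colon genes (15 on the list), 1 was higher and 1 lower in A159V, median log2 difference −0.27. They were Cldn4, higher, and Cdh1, lower. Cldn4 stood at 3.08 without WT replicate 1. Cldn4 lost its call without WT replicate 2 or 3 or A159V replicate 1 or 2 (adjusted p up to 0.0876). Cdh1 lost its call without WT replicate 1 or 3 or A159V replicate 1 or 3 (adjusted p up to 0.0923). Of the defining epithelial markers, Epcam had 0, 1 and 0 counts in WT and 1, 0 and 0 in A159V samples, Krt8 had 9, 5 and 13 and 5, 7 and 7, and Krt18 had 6, 17 and 6 and 0, 2 and 2. All 3 were near 0 in both genotypes, so the name tumor cells rests on the label.

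**Figure D1:**
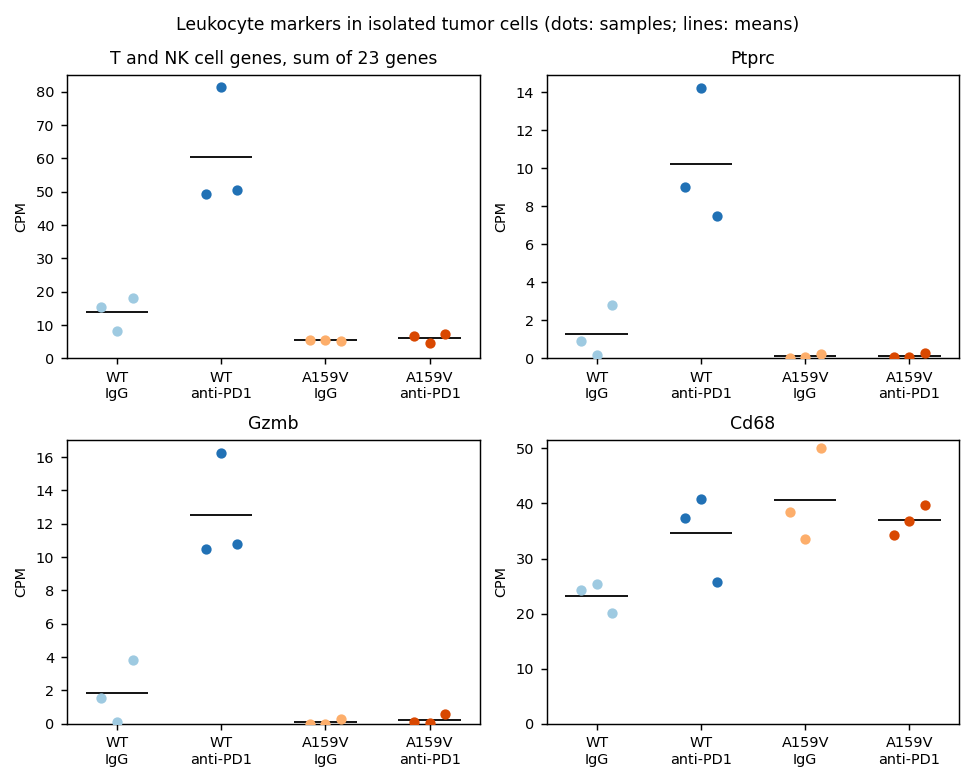
CPM (linear axes from 0) of the 23 tested T and NK cell genes summed, and of Ptprc, Gzmb and Cd68, in the 4 groups, with 1 dot per mouse and a line at each group's mean. The 3 WT anti-PD1 dots lie above all others in every panel but Cd68, where the genotypes overlap under anti-PD1.

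Rac1 itself and its regulators come first among tumor cell genes. Rac1 (chr5:143503634-143528036), the edited gene, had 451, 403 and 414 CPM in WT and 378, 334 and 404 CPM in A159V samples, a log2 difference of −0.18 (adjusted p = 0.404). The groups overlapped by 1 sample, since A159V replicate 3 reached the level of the lowest WT sample. Of the 30 tested Rac1 regulators (34 on the list), 4 were higher and 3 lower in A159V (3 and 3 with RLE, 3 and 5 with upper-quartile scaling), 23.3% called, median log2 difference 0.04, a median of −0.03 with RLE and −0.06 with upper-quartile scaling. Vav1, an exchange factor usual in blood cells, had 2.90, 2.88 and 2.39 CPM in WT and 5.61, 4.996 and 6.12 CPM in A159V samples, a log2 difference of 1.03 (adjusted p = 0.00352). Vav2, a more widely expressed exchange factor, had 59.8, 63.5 and 57.3 CPM in WT and 92.1, 82.1 and 85.7 CPM in A159V samples, a log2 difference of 0.52 (adjusted p = 0.0174). Vav2 lost its call without WT replicate 1 or 3 or A159V replicate 1 or 3 (adjusted p up to 0.0774). For both genes all A159V samples lay above all WT samples. Dock2, the exchange factor of lymphocytes, had 2.69, 5.03 and 2.45 CPM in WT and 0.218, 0 and 0.111 CPM in A159V samples, a log2 difference of −4.87 (adjusted p = 0.00104). Dock2 stood at −5.78 without A159V replicate 1. Arhgef6, an exchange factor that binds PAK, had 5.49, 5.63 and 6.85 CPM in WT and 2.62, 2.02 and 2.45 CPM in A159V samples, a log2 difference of −1.34 (adjusted p = 0.00614). Tiam2, an exchange factor of the Tiam family, had 56.6, 53.4 and 64.7 CPM in WT and 42.6, 36.4 and 38.7 CPM in A159V samples, a log2 difference of −0.57 (adjusted p = 0.0208). Tiam2 lost its call without WT replicate 1 or 3 or A159V replicate 2 or 3 (adjusted p up to 0.102) and with removal of the length trend. For these 3 all A159V samples lay below all WT samples, and Dock2 had at most 4 counts in an A159V sample. Dock2 was lower beside the leukocyte markers, whose part was not tested. Swap70 was also higher. Swap70 lost its call without WT IgG replicate 2 or WT replicate 1, 2 or 3 or A159V IgG replicate 1 or 2 or A159V replicate 1, 2 or 3 (adjusted p up to 0.185) and with RLE scaling and upper-quartile scaling. 2 of the 4 higher and 2 of the 3 lower Rac1 regulators held in all 12 fits without 1 sample, and the higher count was 2 without WT replicate 1 or 3 or A159V replicate 1 or 3, and the lower count was 8 without WT IgG replicate 1 and 7 without WT IgG replicate 4. DESeq2 called 4 higher and 6 lower.

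Downstream of Rac1, effector genes were called about as often as all genes tested, so the count is no result about them as a group. Of the 33 tested WAVE, Arp2/3 and PAK genes (38 on the list), 6 were higher and 1 lower in A159V (5 and 1 with RLE, 4 and 1 with upper-quartile scaling), 21.2% called, median log2 difference 0.28. Under IgG the median was 0.42. Lcp1, plastin-2, which bundles actin filaments, had 12.4, 16.3 and 10.2 CPM in WT and 50.7, 39.97 and 41.8 CPM in A159V samples, a log2 difference of 1.77 (adjusted p = 0.000272). Pak6, a PAK kinase, had 0.673, 0.737 and 0.947 CPM in WT and 4.09, 2.66 and 4.17 CPM in A159V samples, a log2 difference of 2.20 (adjusted p = 0.000511). Limk1, a kinase that inactivates cofilin, had 46.6, 48.8 and 47.8 CPM in WT and 70.1, 73.7 and 74.7 CPM in A159V samples, a log2 difference of 0.61 (adjusted p = 0.00411). All A159V samples exceeded all WT samples for these 3. Arpc1b, a subunit of the Arp2/3 complex, had 568, 533 and 535 CPM in WT and 701, 772 and 762 CPM in A159V samples, a log2 difference of 0.45 (adjusted p = 0.0185). Arpc1b lost its call without WT replicate 2 or 3 or A159V replicate 2 or 3 (adjusted p up to 0.0704) and with upper-quartile scaling. It too was higher in each A159V sample. Baiap2, IRSp53, an adaptor between Rac1 and the WAVE complex, had 240.3, 225 and 308 CPM in WT and 78.9, 90.6 and 83.999 CPM in A159V samples, a log2 difference of −1.61 (adjusted p = 4.54e-05). Baiap2 was the single lower member, with WT replicate 3 the highest sample. 3 of the 6 higher and the 1 lower effector genes held in all 12 fits without 1 sample, and the higher count was 3 without WT replicate 3 or A159V replicate 2.

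The genes in this paragraph and the next were named for size or for p among DEGs whose groups did not overlap. Col5a3, Osm, Pla2g7, Nr4a3 and Syt13 were named for p alone. Cth (chr3:157894248-157925077), which makes cysteine in the last step of transsulfuration, had 0.725, 0.402 and 0.334 CPM in WT and 8.55, 11.5 and 11.5 CPM in A159V samples, a log2 difference of 4.39 (adjusted p = 9.79e-06). Col5a3 (chr9:20770050-20815067), a chain of type V collagen, had 226, 217 and 245 CPM in WT and 1129.8, 898 and 964 CPM in A159V samples, a log2 difference of 2.12 (adjusted p = 9.79e-06). Osm (chr11:4236420-4241026), the cytokine oncostatin M, had 5.23, 5.36 and 5.23 CPM in WT and 29.04, 21.7 and 24.4 CPM in A159V samples, a log2 difference of 2.25 (adjusted p = 1.42e-05). In all 3 genes every WT sample lay far below every A159V sample. Serpinb9g (chr13:33484790-33496004), of a serpin family with close paralogs, had 0.362, 0.536 and 0.167 CPM in WT and 6.37, 5.79 and 5.45 CPM in A159V samples, a log2 difference of 4.05 (adjusted p = 9.83e-05). Syt7 (chr19:10389090-10453180), a calcium sensor for vesicle release, had 0.776, 0.603 and 0.167 CPM in WT and 8.06, 5.16 and 11.3 CPM in A159V samples, a log2 difference of 3.97 (adjusted p = 0.000163). Nlrc4 (chr17:74425438-74459142), an inflammasome sensor, had 0.362, 0.670 and 0.445 CPM in WT and 5.88, 4.36 and 4.90 CPM in A159V samples, a log2 difference of 3.36 (adjusted p = 4.54e-05). WT samples of these genes stayed under 1 CPM, and A159V replicate 3 was the highest for Syt7. Prg4 (chr1:150449412-150466165), the joint lubricant lubricin, had 4.24, 7.84 and 5.79 CPM in WT and 71.3, 45.98 and 42.9 CPM in A159V samples, a log2 difference of 3.17 (adjusted p = 0.000164). Prl2c3, a prolactin-like hormone with near-identical paralogs, had 309.8, 389 and 151 CPM in WT and 2327, 1230.3 and 1841 CPM in A159V samples, a log2 difference of 2.67 (adjusted p = 0.00196). Its WT values spread more widely, with replicate 3 lowest. The other named genes, Abcc2, Rnf144b, Gm9873, Nlrp4e, Dynap and 3830417A13Rik, had differences between 2.47 and 2.66. Reads of Serpinb9g, Prl2c3 and Nlrp4e can also fit paralogs, and whether summarizeOverlaps, used by the authors, kept such reads is not stated, so these genes are uncertain.

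Decreases named by the same rule follow. Grem1 (chr2:113746164-113758646), a secreted antagonist of BMP, had 33.9, 29.2 and 35.2 CPM in WT and 0 counts in every A159V sample, at least 201-fold lower against a floor of 3 counts per library (adjusted p = 9.79e-06). Plet1 (chr9:50494525-50505482), a membrane-anchored surface protein of epithelial and trophoblast cells, had 43.2, 35.6 and 66.8 CPM in WT and 0.436, 1.06 and 0.223 CPM in A159V samples, a log2 difference of −6.37 (adjusted p = 9.79e-06). Plet1 stood at −7.16 without A159V replicate 2. Aqp1 (chr6:55336432-55348555), a water channel, had 31.2, 35.3 and 63.5 CPM in WT and 1.25, 1.12 and 0.946 CPM in A159V samples, a log2 difference of −5.28 (adjusted p = 9.79e-06). Grem1 was absent at this depth in A159V, and neither of the others exceeded 1.25 CPM there. Pla2g7 (chr17:43568098-43612201), the hydrolase of platelet-activating factor, had 29.8, 26.95 and 29.4 CPM in WT and 2.45, 3.67 and 3.17 CPM in A159V samples, a log2 difference of −3.21 (adjusted p = 6.58e-06). Nr4a3 (chr4:48045153-48086447), an orphan nuclear receptor induced by stimulation, had 49.5, 55.98 and 77.3 CPM in WT and 2.94, 2.45 and 2.23 CPM in A159V samples, a log2 difference of −4.58 (adjusted p = 9.79e-06). Syt13 (chr2:92915098-92956058), of the synaptotagmin family, had 34.1, 31.8 and 56.2 CPM in WT and 2.72, 3.14 and 2.11 CPM in A159V samples, a log2 difference of −3.93 (adjusted p = 9.79e-06). WT replicate 3 was the highest sample for Nr4a3 and Syt13, while the WT values of Pla2g7 lay close together. Abca1, the exporter of cholesterol to lipoproteins, had 8.18, 7.84 and 13.6 CPM in WT and 0.218, 0.266 and 0.111 CPM in A159V samples, a log2 difference of −5.59 (adjusted p = 2.32e-05). Hsd11b1, which regenerates active glucocorticoid, had 2.74, 5.10 and 7.24 CPM in WT and 0.163, 0.0532 and 0.0556 CPM in A159V samples, a log2 difference of −5.69 (adjusted p = 9.59e-05). Hsd11b1 stood at −6.35 without A159V replicate 1. Neither gene overlapped. Csmd3, Adamtsl3 and the B-lineage genes Spib and Igha had differences of −5.29, −6.29, −5.47 and −5.70. Csmd3 stood at −5.97 without A159V replicate 2. Adamtsl3 stood at −6.94 without A159V replicate 2. Spib stood at −4.83 without WT replicate 3. Igha stood at −5.11 without A159V replicate 2 and −6.67 without A159V replicate 3. Tnnt3, troponin T of fast skeletal muscle, had 0.207, 8.65 and 16.1 CPM in WT and 0.109, 0.159 and 0.0556 CPM in A159V samples, a log2 difference of −6.17 (adjusted p = 0.00764). Tnnt3 stood at −5.24 without WT replicate 3. Tnnt3 lost its call with voom. The WT level of Tnnt3 came from replicates 2 and 3, the samples that also held other muscle transcripts. The rule for size also named Ptprc and Gzmb, given with the leukocyte markers. All of these genes but Tnnt3, with a difference of −1.97 (adjusted p = 0.263), were also lower under IgG, and all higher ones but Prl2c3, with 1.12 (adjusted p = 0.0817), were also higher.

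**Figure D2:**
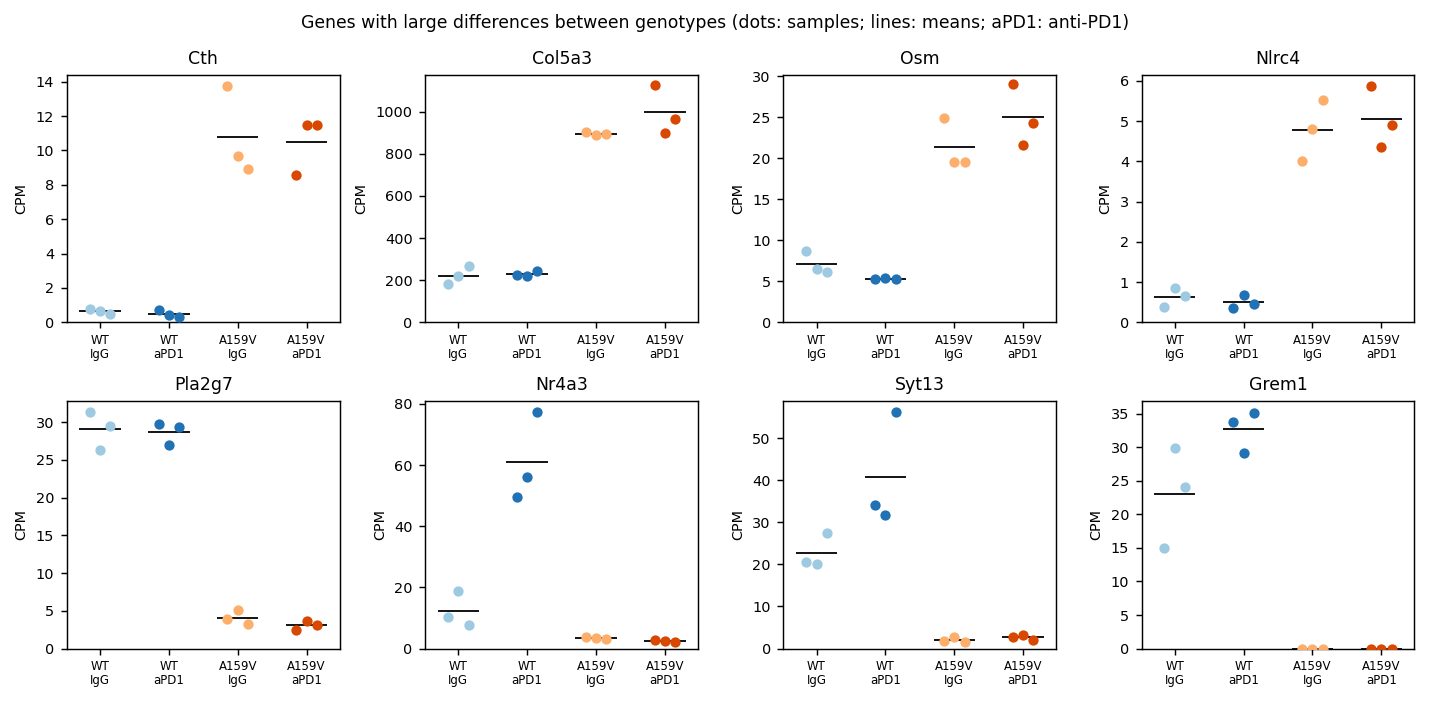
CPM (linear axes from 0) of 4 higher genes (Cth, Col5a3, Osm, Nlrc4) and 4 lower genes (Pla2g7, Nr4a3, Syt13, Grem1) in the 4 groups, with 1 dot per mouse and a line at each mean. A159V and WT dots do not overlap under anti-PD1 in any panel, and Grem1 is at 0 in all A159V samples.

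Ifngr1, a chain of the interferon-gamma receptor, was lower in A159V. Among the lists around it, 21.4% of the guanylate-binding list and 11.8% of the interferon-stimulated list were lower, against 10.2% of all genes tested, and the 2 MHC lists had 1 lower gene each. Of the 14 tested interferon-gamma receptor and JAK-STAT genes, 0 were higher and 3 lower in A159V, 21.4% called, median log2 difference −0.13. Ifngr1 (chr10:19591949-19610229), the ligand-binding receptor chain, had 47.5, 47.7 and 57.2 CPM in WT and 28.5, 28.1 and 31.8 CPM in A159V samples, a log2 difference of −0.79 (adjusted p = 0.000925). Socs1, which inhibits JAK kinases, had 41.2, 28.8 and 34.7 CPM in WT and 15.4, 19.7 and 22.4 CPM in A159V samples, a log2 difference of −0.87 (adjusted p = 0.0163). Socs1 lost its call without WT replicate 1 or 3 or A159V replicate 1 (adjusted p up to 0.0716). Socs3, a related inhibitor, had 156, 142 and 225 CPM in WT and 128, 70.8 and 98.2 CPM in A159V samples, a log2 difference of −0.82 (adjusted p = 0.0144). Socs3 lost its call without WT replicate 3 or A159V replicate 2 or 3 (adjusted p up to 0.0863). Ifngr1 fell in each A159V sample, as it did under IgG (−0.49, adjusted p = 0.0108). 1 of the 3 lower receptor and JAK-STAT genes held in all 12 fits without 1 sample, and the lower count was 5 without WT IgG replicate 1 and 1 without WT replicate 3. Of the 14 tested guanylate-binding proteins and immunity-related GTPases (18 on the list), 0 were higher and 3 lower in A159V, 21.4% called, median log2 difference −0.14. The lower genes were Gbp4, Gbp8 and Gbp9. Gbp8 had 7.30, 8.72 and 6.85 CPM in WT and 3.32, 1.97 and 1.95 CPM in A159V samples, a log2 difference of −1.66 (adjusted p = 0.000848). Gbp4 had 22.7, 20.99 and 16.1 CPM in WT and 13.1, 7.55 and 8.40 CPM in A159V samples, a log2 difference of −1.04 (adjusted p = 0.00382). All 3 are induced by interferon-gamma, sit in a chromosome 5 cluster with close paralogs, and did not overlap between the groups. Of the 22 tested MHC class I and peptide loading genes, 1 was higher and 1 lower in A159V, 9.09% called, median log2 difference −0.06. B2m, the most abundant per length, had 1911, 1849.7 and 1888 CPM in WT and 1753, 1786 and 1886 CPM in A159V samples (−0.06, adjusted p = 0.871), and the groups overlapped. The called members were Tapbpl, higher, and H2-Q7, lower. Tapbpl lost its call without WT replicate 3 (adjusted p up to 0.0578). H2-Q7 lost its call without A159V replicate 3 (adjusted p up to 0.0518). Of the 11 tested MHC class II genes (13 on the list), 1 was higher and 1 lower in A159V, 18.2% called, median log2 difference −0.50. Ifi30, a thiol reductase of antigen processing, had 152, 135 and 154 CPM in WT and 248, 229 and 298 CPM in A159V samples, a log2 difference of 0.81 (adjusted p = 0.00524). H2-Ab1 was the lower gene. H2-Ab1 stood at −1.73 without WT replicate 2 and −3.46 without A159V replicate 1. H2-Ab1 lost its call without WT replicate 1 or 2 or A159V IgG replicate 2 or A159V replicate 2 or 3 (adjusted p up to 0.165) and with voom. Of the 34 tested type I interferon-stimulated genes (35 on the list), 0 were higher and 4 lower in A159V (0 and 5 with RLE, 0 and 5 with upper-quartile scaling), 11.8% called, median log2 difference −0.10. Ifitm1, a membrane protein that blocks virus entry, had 36.96, 34.8 and 44.8 CPM in WT and 1.85, 2.55 and 3.17 CPM in A159V samples, a log2 difference of −3.94 (adjusted p = 9.79e-06). Mx1, an antiviral GTPase, had 53.8, 46.7 and 64.9 CPM in WT and 25.3, 35.9 and 25.9 CPM in A159V samples, a log2 difference of −0.93 (adjusted p = 0.00256). Mx2 and Dhx58 were also lower. Mx2 lost its call without WT replicate 3 or A159V replicate 1 or 3 (adjusted p up to 0.0873). Dhx58 lost its call without WT replicate 2 or 3 or A159V replicate 1 or 3 (adjusted p up to 0.101). Only Ifitm1 among these 4 fell by more than 1 on the log2 scale. 2 of the 4 lower interferon-stimulated genes held in all 12 fits without 1 sample, and the lower count was 7 without WT IgG replicate 1 or A159V IgG replicate 5 and 2 without WT replicate 3 or A159V replicate 3. Under IgG the medians of these 5 lists were −0.24, −0.63, −0.38, −0.98 and −0.25. The T and NK cell genes fell beside these lists, and their part in them was not tested.

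Called CC chemokines were all lower, and called CXC and IL-6 family genes went both ways. Of the 10 tested CC chemokine ligands (20 on the list), 0 were higher and 4 lower in A159V (0 and 5 with RLE, 0 and 4 with upper-quartile scaling), 40% called, median log2 difference −0.93. Ccl2, which attracts monocytes, had 370.3, 286 and 474 CPM in WT and 189.7, 200.5 and 191 CPM in A159V samples, a log2 difference of −0.96 (adjusted p = 0.0127). Ccl2 lost its call without WT replicate 3 or A159V replicate 3 (adjusted p up to 0.0725). Ccl7, another monocyte attractant, had 56.3, 57.9 and 89.5 CPM in WT and 9.37, 18.6 and 13.4 CPM in A159V samples, a log2 difference of −2.30 (adjusted p = 0.000208). Ccl5, which T cells also make, had 34.2, 31.4 and 30.9 CPM in WT and 11.6, 12.97 and 12.1 CPM in A159V samples, a log2 difference of −1.40 (adjusted p = 0.0118). Each A159V sample lay below each WT sample for these 3. Ccl11, an eosinophil attractant, was the remaining lower gene. Ccl11 lost its call without WT replicate 3 or A159V replicate 1 (adjusted p up to 0.0838). 2 of the 4 lower CC chemokines held in all 12 fits without 1 sample, and the lower count was 2 without WT replicate 3. Of the 10 tested CXC, XC and CX3C ligands (17 on the list), 2 were higher and 1 lower in A159V, 30% called, median log2 difference 0.12. Cxcl2, which attracts neutrophils, had 7.19, 4.09 and 6.68 CPM in WT and 20.9, 12.5 and 14.7 CPM in A159V samples, a log2 difference of 1.41 (adjusted p = 0.0185). Cxcl2 lost its call without WT replicate 2 or 3 or A159V replicate 1 (adjusted p up to 0.0765). Cxcl3, of the same neutrophil-attracting group, had 2.02, 1.48 and 0.947 CPM in WT and 7.36, 6.96 and 7.79 CPM in A159V samples, a log2 difference of 2.31 (adjusted p = 0.0184). Cxcl3 lost its call without WT replicate 2 or 3 or A159V replicate 3 (adjusted p up to 0.0886). Cx3cl1, a membrane-bound attractant of monocytes and lymphocytes, had 45.3, 34.3 and 47.9 CPM in WT and 13.6, 19.1 and 13.7 CPM in A159V samples, a log2 difference of −1.46 (adjusted p = 0.000333). The neutrophil attractants were higher and Cx3cl1 lower in all A159V samples. Of the 12 tested IL-6 family genes (13 on the list), 2 were higher and 2 lower in A159V, 33.3% called, median log2 difference −0.04. Il6st (chr13:112464070-112510086), gp130, the shared signal chain of the family, had 98.3, 95.3 and 112 CPM in WT and 37.97, 33.8 and 32.8 CPM in A159V samples, a log2 difference of −1.55 (adjusted p = 9.83e-05). Il6st was lower in every A159V sample, while its ligand Osm was higher. The receptor genes Osmr, higher, and Il6ra, lower, were also called. Osmr lost its call without WT replicate 1, 2 or 3 or A159V replicate 1 or 2 (adjusted p up to 0.127). Il6ra lost its call without WT replicate 2 or 3 or A159V replicate 2 or 3 (adjusted p up to 0.0753).

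Checkpoint genes were called in both directions, and most called NF-kB genes were lower. Of the 17 tested checkpoint and immune evasion genes (30 on the list), 3 were higher and 2 lower in A159V, 29.4% called, median log2 difference −0.03. Vsir, the checkpoint protein VISTA, had 3.99, 5.97 and 7.96 CPM in WT and 0.545, 0.585 and 0.501 CPM in A159V samples, a log2 difference of −3.44 (adjusted p = 0.000185). Cd80, a ligand of CD28 and CTLA-4, had 0.259, 0.268 and 0.445 CPM in WT and 0.981, 1.81 and 1.22 CPM in A159V samples, a log2 difference of 2.02 (adjusted p = 0.00676). Vsir was lower and Cd80 higher in all A159V samples. Nectin2, a ligand of TIGIT, and Fas, a death receptor, were higher and Ceacam1, an inhibitory adhesion molecule, was lower. Fas lost its call without WT IgG replicate 2 or WT replicate 1, 2 or 3 or A159V replicate 1, 2 or 3 (adjusted p up to 0.122). Ceacam1 stood at −1.70 without WT replicate 3 and −3.18 without A159V replicate 2. Ceacam1 lost its call without WT replicate 3 or A159V replicate 1 or 3 (adjusted p up to 0.100). Cd274, which encodes PD-L1, had 81.99, 84.3 and 65.1 CPM in WT and 77.4, 43.3 and 45.003 CPM in A159V samples (−0.48, adjusted p = 0.122) and did not pass. Cd274 stayed uncalled in 10 of the 12 fits without 1 sample and was called lower in the others. Its difference ran from −0.80 to −0.33 over these fits. Of the 24 tested NF-kB pathway genes and targets (25 on the list), 2 were higher and 8 lower in A159V (0 and 8 with RLE, 0 and 8 with upper-quartile scaling), 41.7% called, median log2 difference −0.05. Vcam1, an adhesion molecule for leukocytes, had 163, 122 and 182 CPM in WT and 57.9, 46.7 and 62.97 CPM in A159V samples, a log2 difference of −1.48 (adjusted p = 0.00208). Tnfaip3, the inhibitor A20, had 94.9, 59.5 and 116 CPM in WT and 48.1, 34.5 and 39.2 CPM in A159V samples, a log2 difference of −1.15 (adjusted p = 0.00562). Both were lower in every A159V sample. 0 of the 2 higher and 3 of the 8 lower NF-kB genes held in all 12 fits without 1 sample, and the higher count was 0 without WT replicate 2 or 3 or A159V replicate 1 or 3, and the lower count was 5 without WT replicate 1, 3 without WT replicate 3 or A159V replicate 2 and 4 without A159V replicate 3.

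The ATF4 list had the most calls among the metabolic lists. Of the 35 tested ATF4 program genes (37 on the list), 21 were higher and 2 lower in A159V (19 and 2 with RLE, 15 and 2 with upper-quartile scaling), 65.7% called, median log2 difference 0.54. Asns, asparagine synthetase, had 231, 218 and 178 CPM in WT and 350.2, 323 and 361 CPM in A159V samples, a log2 difference of 0.72 (adjusted p = 0.00577). Psph, the last enzyme of serine synthesis, had 61.2, 57.1 and 47.8 CPM in WT and 93.8, 91.5 and 105 CPM in A159V samples, a log2 difference of 0.81 (adjusted p = 0.00274). For both, every A159V sample exceeded every WT sample. Aars, alanyl-tRNA synthetase, had 671, 651 and 573 CPM in WT and 936, 1021 and 1006 CPM in A159V samples, a log2 difference of 0.64 (adjusted p = 0.00318). Its groups lay apart. 10 of the 21 higher and 0 of the 2 lower ATF4 program genes held in all 12 fits without 1 sample, and the higher count was 10 without WT replicate 3 and 13 without A159V replicate 3, and the lower count was 0 without WT replicate 3 or A159V replicate 2. Of the 15 tested transsulfuration and glutathione genes (16 on the list), 6 were higher and 1 lower in A159V, 46.7% called, median log2 difference 0.30. Gsta4, a glutathione transferase for lipid aldehydes, had 29.3, 29.03 and 26.4 CPM in WT and 103, 80.5 and 93.8 CPM in A159V samples, a log2 difference of 1.71 (adjusted p = 8.22e-05). Gsr, glutathione reductase, had 209, 186 and 163 CPM in WT and 383, 343 and 385 CPM in A159V samples, a log2 difference of 0.99 (adjusted p = 0.000618). Gsta4 and Gsr were higher in each A159V sample, and Gstm1, another transferase, was lower. Gstm1 lost its call without A159V replicate 3 (adjusted p up to 0.0532). 3 of the 6 higher and 0 of 1 lower glutathione genes held in all 12 fits without 1 sample, and the higher count was 3 without WT replicate 3 or A159V replicate 3.

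Called glycolytic, sterol and fatty acid genes were all higher, to be read against the 11.2% of all genes tested that were higher. Of the 24 tested glycolysis and lactate export genes, 6 were higher and 0 lower in A159V (4 and 0 with RLE, 3 and 0 with upper-quartile scaling), 25% called, median log2 difference 0.33. Eno1, enolase, had 2322, 2274 and 1977 CPM in WT and 3332, 3338 and 3487 CPM in A159V samples, a log2 difference of 0.63 (adjusted p = 0.00737). Pfkp, a phosphofructokinase, had 261, 267 and 217 CPM in WT and 391, 383 and 395 CPM in A159V samples, a log2 difference of 0.65 (adjusted p = 0.00562). The A159V samples of both lay above the WT samples. 2 of the 6 higher glycolysis genes held in all 12 fits without 1 sample, and the higher count was 3 without WT replicate 2 and 2 without WT replicate 3 or A159V replicate 3. Of the 24 tested sterol synthesis genes, 4 were higher and 0 lower in A159V (2 and 0 with RLE, 2 and 0 with upper-quartile scaling), 16.7% called, median log2 difference 0.13. Fdps, which makes farnesyl pyrophosphate, a precursor of sterols, had 150.5, 113 and 138 CPM in WT and 239.6, 198 and 231 CPM in A159V samples, a log2 difference of 0.73 (adjusted p = 0.00832). Of the 15 tested fatty acid synthesis genes, 4 were higher and 0 lower in A159V (1 and 0 with RLE, 1 and 0 with upper-quartile scaling), 26.7% called, median log2 difference 0.27. Me1, malic enzyme, a source of NADPH, had 124, 124 and 99.999 CPM in WT and 199.8, 184 and 208 CPM in A159V samples, a log2 difference of 0.77 (adjusted p = 0.00382). Fdps and Me1 were higher in every A159V sample. 1 of the 4 higher sterol genes held in all 12 fits without 1 sample, and the higher count was 2 without WT IgG replicate 2 and 1 without WT replicate 2 or 3 or A159V replicate 1 or 3. 1 of the 4 higher fatty acid genes held in all 12 fits without 1 sample, and the higher count was 1 without WT IgG replicate 2 or WT replicate 1, 2 or 3 or A159V replicate 1 or 3 and 2 without A159V IgG replicate 2. Of the 22 tested sphingolipid and ganglioside genes (25 on the list), 5 were higher and 2 lower in A159V (3 and 3 with RLE, 3 and 3 with upper-quartile scaling), 31.8% called, median log2 difference 0.07, a median of −0.02 with upper-quartile scaling. B4galt5, a lactosylceramide synthase, had 134, 128 and 155 CPM in WT and 264, 227 and 261 CPM in A159V samples, a log2 difference of 0.85 (adjusted p = 0.00280). Sptlc2, a subunit of serine palmitoyltransferase, had 94.2, 87.5 and 84.97 CPM in WT and 149, 132 and 141 CPM in A159V samples, a log2 difference of 0.66 (adjusted p = 0.00381). Both were higher in all A159V samples. 2 of the 5 higher and 0 of the 2 lower sphingolipid genes held in all 12 fits without 1 sample, and the higher count was 3 without WT IgG replicate 2 or WT replicate 2 or 3 or A159V replicate 1 or 3 and 2 without WT replicate 1, and the lower count was 0 without WT replicate 2 or A159V replicate 2 and 4 without A159V IgG replicate 5. DESeq2 called 4 higher and 4 lower. Of the 22 tested mTORC1 complex and regulator genes (24 on the list), 2 were higher and 2 lower in A159V (1 and 3 with RLE, 1 and 3 with upper-quartile scaling), 18.2% called, median log2 difference 0.10. Sesn1, an inhibitor of mTORC1 during amino acid shortage, had 31.9, 27.5 and 48.1 CPM in WT and 13.3, 12.1 and 11.4 CPM in A159V samples, a log2 difference of −1.55 (adjusted p = 0.000298). Sesn1 did not overlap, and Castor1, Deptor and Eif4ebp1 were also called. Deptor lost its call without WT replicate 1 or 3 or A159V replicate 1, 2 or 3 (adjusted p up to 0.0846). Eif4ebp1 lost its call without WT IgG replicate 2 or WT replicate 1, 2 or 3 or A159V replicate 1, 2 or 3 (adjusted p up to 0.114) and with RLE scaling and upper-quartile scaling. Of the 21 tested hypoxia-induced genes (22 on the list), 1 was higher and 0 lower in A159V (0 and 2 with RLE, 0 and 2 with upper-quartile scaling), 4.76% called, median log2 difference −0.02. P4ha2, a collagen hydroxylase, was the higher one, and 3 genes were lower without WT IgG replicate 1 and 2 without A159V IgG replicate 5. P4ha2 lost its call without WT IgG replicate 1 or 2 or WT replicate 1 or 3 or A159V IgG replicate 1 or A159V replicate 1, 2 or 3 (adjusted p up to 0.154) and with RLE scaling and upper-quartile scaling.

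**Figure D3:**
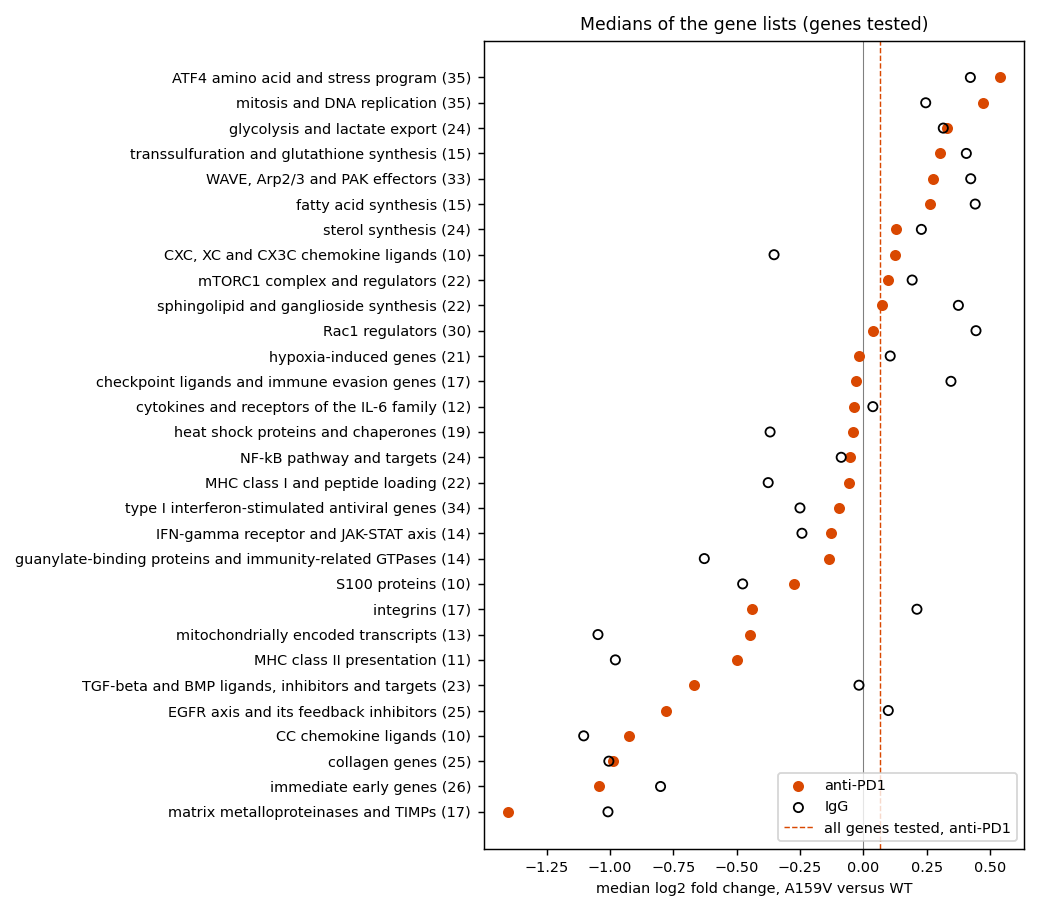
Median log2 difference (A159V minus WT) of each list of tumor cell genes, with the number of genes tested in brackets, under anti-PD1 (filled) and IgG (open), and the median of all genes tested under anti-PD1 (dashed line). Medians ran from −1.40 for the metalloproteinases to 0.54 for the ATF4 program, and the anti-PD1 sign turned negative for sphingolipid and ganglioside synthesis (upper-quartile scaling and the 6 samples alone) and Rac1 regulators (RLE, upper-quartile scaling, DESeq2 and the 6 samples alone), with further turns of sign given after the report.

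Most called genes of the EGFR axis were lower, inhibitors included. Of the 25 tested EGFR axis genes (28 on the list), 3 were higher and 12 lower in A159V (3 and 13 with RLE, 2 and 14 with upper-quartile scaling), 60% called, median log2 difference −0.78. Under IgG the median was 0.10. Egfr, the receptor of EGF, had 14.03, 14.4 and 15.2 CPM in WT and 9.10, 5.95 and 7.84 CPM in A159V samples, a log2 difference of −0.93 (adjusted p = 0.00642). Hbegf, an EGFR ligand, had 42.7, 44.7 and 46.05 CPM in WT and 30.9, 14.8 and 22.6 CPM in A159V samples, a log2 difference of −0.97 (adjusted p = 0.00732). Errfi1 (chr4:150853919-150868892), a feedback inhibitor that binds the EGFR kinase domain, had 88.98, 87.02 and 98.3 CPM in WT and 44.6, 47.4 and 47.5 CPM in A159V samples, a log2 difference of −0.98 (adjusted p = 0.000208). All A159V samples lay below all WT samples for these 3. Under IgG, Errfi1 had 44.4, 38.7 and 36.9 CPM in WT and 52.3, 57.96 and 48.6 CPM in A159V samples, a difference of 0.41 (adjusted p = 0.0251), opposite in sign. Dusp1, a phosphatase of MAP kinases, had 700.2, 629 and 1043 CPM in WT and 142, 116 and 203 CPM in A159V samples, a log2 difference of −2.36 (adjusted p = 0.000241). Dusp6, a phosphatase of ERK, had 101, 80.7 and 117 CPM in WT and 45.5, 34.8 and 44.2 CPM in A159V samples, a log2 difference of −1.26 (adjusted p = 0.000443). Each of these inhibitors was lower in all A159V samples, and WT replicate 3 was the highest. Etv4, an ETS factor downstream of ERK, had 67.5, 59.6 and 49.999 CPM in WT and 96.7, 93.8 and 95.01 CPM in A159V samples, a log2 difference of 0.69 (adjusted p = 0.00273). Etv4 and the ligand genes Ereg and Areg were the higher members. Ereg lost its call without WT replicate 2 or 3 or A159V replicate 1 (adjusted p up to 0.0780). Areg lost its call without WT replicate 1, 2 or 3 or A159V replicate 1 or 2 (adjusted p up to 0.146) and with upper-quartile scaling. 1 of the 3 higher and 9 of the 12 lower EGFR axis genes held in all 12 fits without 1 sample, and the higher count was 1 without WT replicate 2 or 3 or A159V replicate 1. Of the 26 tested immediate early genes (29 on the list), 0 were higher and 16 lower in A159V (0 and 17 with RLE, 0 and 17 with upper-quartile scaling), 61.5% called, median log2 difference −1.05. Fosb, a subunit of the transcription factor AP-1, had 1619.9, 1721 and 2476 CPM in WT and 554, 234 and 472 CPM in A159V samples, a log2 difference of −2.21 (adjusted p = 0.000360). Egr2, a zinc finger factor, had 79.7, 79.4 and 138 CPM in WT and 7.36, 3.72 and 7.12 CPM in A159V samples, a log2 difference of −4.03 (adjusted p = 3.03e-05). Klf4, a Krüppel-like factor, had 302, 306 and 418 CPM in WT and 49.3, 41.7 and 45.9 CPM in A159V samples, a log2 difference of −2.91 (adjusted p = 1.35e-05). WT replicate 3 was again the highest sample. Nr4a2, a relative of Nr4a3, had 66.5, 61.4 and 104 CPM in WT and 12.3, 10.8 and 7.84 CPM in A159V samples, a log2 difference of −2.91 (adjusted p = 1.84e-05). None of these 4 overlapped between the groups. 13 of the 16 lower immediate early genes held in all 12 fits without 1 sample.

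Most called TGF-beta and BMP genes were lower, among them Grem1, at 0 counts in all A159V samples. Of the 23 tested TGF-beta and BMP genes (28 on the list), 2 were higher and 9 lower in A159V (2 and 12 with RLE, 2 and 12 with upper-quartile scaling), 47.8% called, median log2 difference −0.67. Smad7, a feedback inhibitor of TGF-beta, had 53.9, 43.98 and 62.9 CPM in WT and 21.2, 18.1 and 16.4 CPM in A159V samples, a log2 difference of −1.53 (adjusted p = 0.000245). Tgfb3, a TGF-beta ligand, had 26.9, 21.8 and 36.5 CPM in WT and 10.8, 11.96 and 11.2 CPM in A159V samples, a log2 difference of −1.33 (adjusted p = 0.00237). The A159V samples of both lay below the WT samples. Gdf15, a stress-induced cytokine of the family, had 44.7, 35.9 and 37.1 CPM in WT and 79.8, 89.6 and 92.5 CPM in A159V samples, a log2 difference of 1.15 (adjusted p = 0.000623). Fstl1, a secreted glycoprotein that binds BMP ligands, had 138, 132 and 144 CPM in WT and 346, 259 and 331 CPM in A159V samples, a log2 difference of 1.18 (adjusted p = 0.000990). Gdf15 and Fstl1 were higher in every A159V sample. 2 of the 2 higher and 6 of the 9 lower TGF-beta and BMP genes held in all 12 fits without 1 sample.

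Most called extracellular matrix genes were lower. Of the 25 tested collagen genes (29 on the list), 1 was higher and 11 lower in A159V (1 and 12 with RLE, 1 and 12 with upper-quartile scaling), 48% called, median log2 difference −0.99. Col6a1, a chain of type VI collagen and the most abundant collagen per length, had 1199.9, 1156 and 2196 CPM in WT and 188, 322 and 271 CPM in A159V samples, a log2 difference of −2.54 (adjusted p = 0.000474). Col3a1, of fibrillar type III collagen, had 351, 437 and 901 CPM in WT and 59.1, 72.1 and 89.3 CPM in A159V samples, a log2 difference of −2.94 (adjusted p = 0.000111). WT replicate 3 was the highest sample for each, and no A159V sample reached a WT sample. Col5a3 was the single higher collagen. The 1 higher and 7 of the 11 lower collagen genes held in all 12 fits without 1 sample, and the lower count was 7 without WT replicate 3 or A159V replicate 2. Of the 17 tested matrix metalloproteinase and TIMP genes (22 on the list), 0 were higher and 11 lower in A159V, 64.7% called, median log2 difference −1.40. Mmp2, a gelatinase, had 25.8, 23.9 and 36.5 CPM in WT and 9.37, 9.30 and 11.1 CPM in A159V samples, a log2 difference of −1.54 (adjusted p = 0.000356). Mmp9, the second gelatinase, also made by neutrophils, had 40.1, 29.6 and 95.9 CPM in WT and 4.63, 7.23 and 6.06 CPM in A159V samples, a log2 difference of −3.21 (adjusted p = 0.000954). Mmp9 stood at −2.54 without WT replicate 3. Timp2, an inhibitor of metalloproteinases, had 272, 280.0 and 361 CPM in WT and 92.1, 107 and 95.7 CPM in A159V samples, a log2 difference of −1.63 (adjusted p = 1.42e-05). All 3 were lower in each A159V sample. 7 of the 11 lower metalloproteinase and TIMP genes held in all 12 fits without 1 sample, and the lower count was 7 without A159V replicate 1 or 3. Of the 16 fibroblast and pericyte genes, 8 were lower beside both lists and 1 higher, and their part was not tested.

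Of the called integrins and S100 proteins, all but 1 were lower. Of the 17 tested integrin genes (22 on the list), 1 was higher and 9 lower in A159V, 58.8% called, median log2 difference −0.44. Under IgG the median was 0.21. Itgb4, the partner of integrin alpha 6 at laminin, had 30.7, 39.8 and 48.8 CPM in WT and 8.01, 9.67 and 7.57 CPM in A159V samples, a log2 difference of −2.24 (adjusted p = 4.03e-05). Itgb8, which activates latent TGF-beta, had 2.17, 1.27 and 2.56 CPM in WT and 0 counts in all A159V samples, at least 12.3-fold lower against a floor of 3 counts per library (adjusted p = 0.00526). Each was lower in all A159V samples. Itgb2, of the leukocyte integrins, had 10.6, 10.3 and 9.41 CPM in WT and 2.94, 2.76 and 1.78 CPM in A159V samples, a log2 difference of −2.01 (adjusted p = 0.00268). Itga4, also an integrin of leukocytes, had 1.55, 2.21 and 1.17 CPM in WT and 0.109, 0.0532 and 0 CPM in A159V samples, a ratio of WT to A159V of 29.6 (95% counting interval 9.78 to 146, adjusted p = 0.00226). The ratio rests on 3 A159V counts, and the fitted log2 difference, −4.75, was −5.59 without A159V replicate 1. Itga7, a laminin receptor, had 9.37, 8.45 and 7.68 CPM in WT and 18.4, 19.6 and 19.6 CPM in A159V samples, a log2 difference of 1.17 (adjusted p = 0.000465). Itgb2 and Itga4 were lower beside the leukocyte markers, whose part was not tested, and Itga7 was the single higher integrin. The 1 higher and 5 of the 9 lower integrin genes held in all 12 fits without 1 sample. Of the 10 tested S100 genes (14 on the list), 0 were higher and 3 lower in A159V, 30% called, median log2 difference −0.28. S100a4 (chr3:90603771-90606045), a calcium-binding protein of motile cells, had 248, 309 and 387 CPM in WT and 40.9, 57.03 and 49.2 CPM in A159V samples, a log2 difference of −2.68 (adjusted p = 3.03e-05). S100a4 was lower in every A159V sample, as were S100a10 and S100a14. S100a10 lost its call without WT replicate 1, 2 or 3 or A159V replicate 1, 2 or 3 (adjusted p up to 0.136). S100a14 lost its call without WT replicate 3 or A159V replicate 2 or 3 (adjusted p up to 0.101).

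All called mitosis and replication genes were higher in A159V. Of the 35 tested mitosis and DNA replication genes, 21 were higher and 0 lower in A159V (15 and 0 with RLE, 14 and 0 with upper-quartile scaling), 60% called, median log2 difference 0.47. Under IgG the median was 0.25, with 8 higher and 1 lower. Rrm2, a subunit of ribonucleotide reductase, had 254, 232 and 189.6 CPM in WT and 512, 515 and 551 CPM in A159V samples, a log2 difference of 1.22 (adjusted p = 0.000238). Ccne1, cyclin E1, had 15.6, 15.1 and 14.8 CPM in WT and 29.96, 30.4 and 35.3 CPM in A159V samples, a log2 difference of 1.07 (adjusted p = 0.000622). Plk1, a mitotic kinase, had 74.02, 64.3 and 71.7 CPM in WT and 105, 117 and 129 CPM in A159V samples, a log2 difference of 0.74 (adjusted p = 0.00101). No A159V sample fell among the WT samples for these 3. Ccnb1, cyclin B1, had 107, 90.8 and 93.7 CPM in WT and 167, 155 and 175 CPM in A159V samples, a log2 difference of 0.77 (adjusted p = 0.00608). Each A159V value was again above each WT value, and 33 of the 35 genes had groups that did not overlap, against 56.1% of all genes tested. 8 of the 21 higher replication genes held in all 12 fits without 1 sample, and the higher count was 10 without WT replicate 2, 8 without WT replicate 3, 13 without A159V replicate 1 and 9 without A159V replicate 3. Of the 19 tested heat shock and chaperone genes, 3 were higher and 5 lower in A159V (2 and 5 with RLE, 2 and 5 with upper-quartile scaling), 42.1% called, median log2 difference −0.04. Cryab, a small heat shock protein, had 3.83, 10.1 and 3.95 CPM in WT and 0.490, 0.797 and 0.668 CPM in A159V samples, a log2 difference of −3.17 (adjusted p = 0.000363). Cryab stood at −2.56 without WT replicate 2. Dnajb4, a cochaperone of Hsp70, had 53.6, 46.999 and 66.8 CPM in WT and 22.1, 19.8 and 20.03 CPM in A159V samples, a log2 difference of −1.43 (adjusted p = 0.00180). Those were lower, while Hsp90ab1, Hspd1 and Hspa9, chaperones of the cytosol and mitochondria, were the higher members. Hsp90ab1 lost its call without WT IgG replicate 2 or WT replicate 2 or 3 or A159V replicate 1, 2 or 3 (adjusted p up to 0.106) and with RLE scaling and upper-quartile scaling. Hspd1 lost its call without WT replicate 2 or 3 or A159V replicate 1 or 3 (adjusted p up to 0.104). Hspa9 lost its call without WT replicate 3 or A159V replicate 1 or 3 (adjusted p up to 0.111). 0 of the 3 higher and 2 of the 5 lower heat shock genes held in all 12 fits without 1 sample, and the higher count was 5 without WT IgG replicate 1, 1 without WT replicate 2 and 0 without WT replicate 3 or A159V replicate 1 or 3, and the lower count was 3 without WT replicate 3 or A159V replicate 1 or 3 and 2 without A159V replicate 2. None of the 13 mitochondrially encoded transcripts passed in edgeR (median −0.45), 2 had an unadjusted p under 0.05, DESeq2 called 2 lower, voom 0, removal of the exon length trend 1 and the 6 samples alone 6, and edgeR called 2 without WT IgG replicate 1 and 3 without A159V IgG replicate 5. They held 3.90, 2.89 and 3.85% of counts in WT and 2.87, 3.06 and 2.004% in A159V samples.

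DEGs were spread unevenly along the genome. The distal end of chromosome 4 was singled out after its values were seen. In mm10, chr4:132274375-156247616 held 321 tested genes, 114 of them higher (35.5%, against 11.2% of all genes tested) and 17 lower (5.30%, against 10.2%), with a median difference of 0.38 under anti-PD1 and 0.39 under IgG. RLE scaling gave 89 against 18 calls there, and the upper-quartile method 77 against 18. The higher count there was 69 without WT replicate 1, 64 without WT replicate 2, 55 without WT replicate 3 and 59 without A159V replicate 3. Among blocks of at least 25 consecutive tested genes, the one with the highest median there, chr4:146610961-148038821, had 12 higher and 0 lower genes and a median of 0.84, or 0.66 under IgG. Over all 560 blocks the 5th and 95th percentiles were −0.25 and 0.28, and the lowest and highest medians were −0.80 and 1.16. Errfi1, lower under anti-PD1, lies within this region. On chromosome 10, which carries Ifngr1, 129 of 674 genes were lower (19.1%, against 10.2%); the count was 83 without WT replicate 3 and 80 without A159V replicate 3. The chromosome had a median of −0.17, or −0.21 under IgG. The last block of chromosome 13, chr13:111425680-120308779, held Il6st and Itga1, with 16 of 37 genes lower (43.2%, against 10.2%) and 0 higher, and medians of −0.72 and, under IgG, −0.65. Chromosome 10 and this block were not picked by a rule fixed in advance, so their shares are descriptions only. Medians of chromosomes 4, 10 and 13 kept their sign with each scaling. Whether copy number differs between the WT cells and the A159V clone was not tested.

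**Figure D4:**
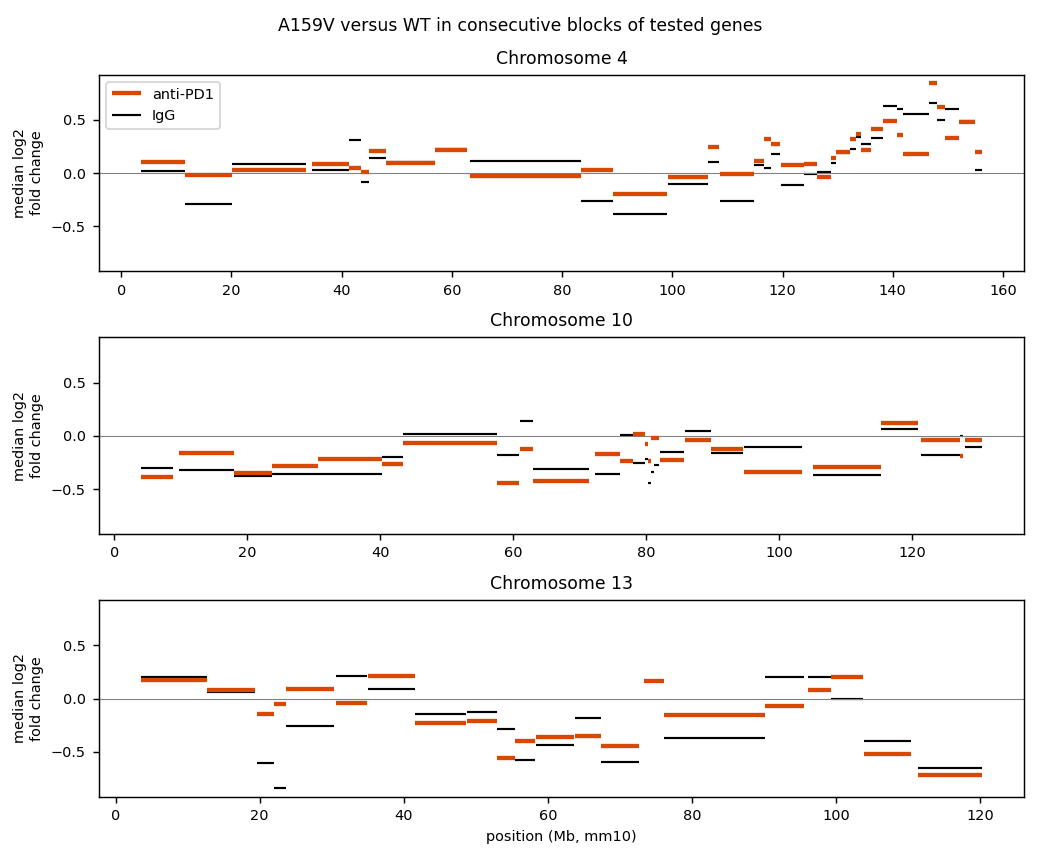
Median log2 difference (A159V minus WT) in blocks of at least 25 consecutive tested genes along chromosomes 4, 10 and 13 (mm10, position in Mb), under anti-PD1 (thick) and IgG (thin), each line spanning its block. The distal end of chromosome 4 was picked after its values were seen, and the last block of chromosome 13 lies at −0.72.

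Promoters of the ATF4 program were read, a list and motif picked for display after their values were seen. The motif was the core of the CEBP-ATF element, TGATGNAA, which ATF4 binds with CEBP factors, searched on both strands (TTNCATCA on the other) in the 250 bases before the start. Of the 35 tested members, 28 had a RefSeq promoter and 9 of these (32.1%) held the motif, against 1056 of 27025 promoters in the RefSeq table (3.91%). The GAS, ISRE and CRE motifs were also searched, and the check over all DEGs and genes tested is void, since the RefSeq table held a promoter for only 75.2% of genes tested. At 80%, the ATF4 list was covered only slightly better, so its share is a description as well. The list was written as an ATF4 program, so a high share of this motif follows in part from its membership. It is no result about A159V. The 7 DEGs with the motif are shown with the bases around it, in the sense of the gene. Aars, Gars, Asns, Chac1 and Slc7a11 were higher and Nupr1 and Atf3 lower in A159V. Chac1 lost its call without WT IgG replicate 2 or WT replicate 2 or 3 or A159V replicate 2 or 3 (adjusted p up to 0.110) and with upper-quartile scaling. Slc7a11 lost its call without WT replicate 1 or 3 or A159V replicate 1 or 3 (adjusted p up to 0.148). Nupr1 lost its call without WT replicate 3 or A159V replicate 2 or 3 (adjusted p up to 0.116). Atf3 lost its call without WT IgG replicate 2 or WT replicate 1, 2 or 3 or A159V IgG replicate 2 or A159V replicate 1 or 2 (adjusted p up to 0.148). Capitals mark each motif, 2 of them in Slc7a11, and positions are those of GRCm38.p6. Aars spans chr8:111033710-111033757 on the plus strand. Gars spans chr6:55037951-55037998 on the plus strand. Asns spans chr6:7693210-7693252 on the minus strand. Chac1 spans chr2:119351029-119351076 on the plus strand. Slc7a11 spans chr3:50443652-50443699 on the minus strand. Nupr1 spans chr7:126625553-126625600 on the minus strand. Atf3 spans chr1:191183416-191183463 on the minus strand. A match is a description and shows no binding.
Aars: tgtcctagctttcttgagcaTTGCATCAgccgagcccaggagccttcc
Gars: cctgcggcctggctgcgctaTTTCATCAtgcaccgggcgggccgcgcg
Asns: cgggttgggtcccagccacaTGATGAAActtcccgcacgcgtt
Chac1: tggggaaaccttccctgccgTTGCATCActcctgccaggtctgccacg
Slc7a11: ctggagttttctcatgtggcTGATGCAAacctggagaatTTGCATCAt
Nupr1: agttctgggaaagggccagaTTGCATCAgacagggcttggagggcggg
Atf3: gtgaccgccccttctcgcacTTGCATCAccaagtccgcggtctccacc

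The comparison rests on 3 mice per group and 1 A159V clone, so clone and mutation cannot be told apart. Leukocyte and fibroblast transcripts differ between the groups, and their part in the genes of tumor cells was not tested. RNA levels do not show protein, GTP loading of Rac1 or cell number. Library strand and the mode of summarizeOverlaps are not stated, so overlapping and paralogous genes are uncertain. The labels do not say whether replicate numbers pair the mice, and the main fit used no pairing. Genes named outside the rule were chosen after their values were seen.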

How the data were processed

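The counts per gene deposited by the authors were used, from reads placed on mm10 by STAR and assigned to genes by summarizeOverlaps. Of 33219 features, 14340 passed filterByExpr, and 2 reporter features were at 0. In R 4.3.3, edgeR 4.0.16 fitted 12 samples in 4 groups of 3 mice by quasi-likelihood with TMM scaling, which leaves 8 residual degrees of freedom. Adjusted p values are Benjamini-Hochberg over the genes tested. limma 3.58.1 (voom) and DESeq2 1.42.0 served as alternatives, and figures were drawn with Python 3.11.15 and matplotlib 3.10.9. The named genes are DEGs whose groups do not overlap and whose higher mean is at least 5 CPM: the 12 with the greatest change and the 5 with the smallest p in each direction. List members, Rac1, Ifngr1, Errfi1 and any interaction gene were added. A further higher Rac1 regulator and a lower TGF-beta list gene are not reported here. Members and lists were chosen with earlier results of these data known. Promoter sequences are from RefSeq, build GRCm38.p6. Floors and counting intervals cover counting error alone, and the libraries hold no molecular identifiers. The intervals pool the counts of the 3 mice of each group, so variation between mice is left out.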

Additional observations from a re-analysis of the deposited data

Results flagged for a closer look

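The Rac1 genotype difference of Errfi1 depended on treatment, in a test of the difference between treatments as an interaction. Under anti-PD1 Errfi1 was 88.98, 87.02 and 98.3 CPM in WT and 44.6, 47.4 and 47.5 CPM in A159V samples, lower in 3 of 3, and under IgG it was 44.4, 38.7 and 36.9 CPM in WT and 52.3, 57.96 and 48.6 CPM in A159V samples, higher in 3 of 3. The difference under anti-PD1 minus that under IgG was −1.38 on the log2 scale, with an adjusted p of 0.0267 in edgeR. The call was lost with upper-quartile scaling (adjusted p = 0.0503), with the leukocyte score in the model (0.627), and in 9 of the 12 fits that left out 1 sample. Those were without WT IgG replicate 2 (0.0916), A159V IgG replicates 1 (0.126) and 2 (0.0728), WT anti-PD1 replicates 1 to 3 (0.145, 0.116 and 0.173) and A159V anti-PD1 replicates 1 to 3 (0.208, 0.156 and 0.137). The cause was not tested.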

How the results depend on the processing

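Of the 3075 genes called under anti-PD1, RLE size factors, no low-count filter, DESeq2, voom, removal of the exon length trend and thinning to the smallest library left the total within 1.5 times, and no gene was called in the opposite direction by any alternative run. A limit of 1 on the log2 difference gave 1326 DEGs, 345 of them higher and 981 lower. Requiring at least 10 counts in every sample gave 2014, 887 higher and 1127 lower, where fewer genes were tested. Upper-quartile scaling gave 2719, 931 higher and 1788 lower, and the cause was not tested. The 6 anti-PD1 samples fitted alone gave 5320, 2352 higher and 2968 lower. Leaving out 1 sample at a time gave 1519 to 4134 DEGs, 643 to 2073 higher and 876 to 2351 lower, and the group left with 2 samples is assumed to vary like the others.

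A block for replicate number gave 5018 DEGs, 2807 higher and 2211 lower with all 12 samples, and 5322, 2336 higher and 2986 lower with the 6 alone. The block absorbs WT IgG replicate 4 and A159V IgG replicate 5, whose numbers no other sample carries. Correlations of same-numbered deviations between the anti-PD1 groups were −0.0096, −0.073 and −0.104. Deviations from means of 3 samples cannot decide whether the numbers pair the mice, and the labels do not say.

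With the leukocyte score in the model, edgeR called 2 genes, 0 higher and 2 lower, and 143 under IgG. These differences of named genes changed sign with the score: Acta1 3.34, Areg −0.79, B2m 0.72, Ccl5 1.29, Cd8a 1.90, Ereg −1.05, Gzmb 0.11, H2-Ab1 2.31, H2-Q7 0.32, Il2rb 0.66, Itgb2 0.47, Osmr −0.00830, Rac1 0.30, S100a10 0.18 and Vav2 −0.00543. Cd68, not called, stood at 0.09 with TMM, −0.00201 with upper-quartile scaling and at −0.0781 to 0.23 when 1 sample was left out. List medians that changed sign with the score were fibroblast 0.32, MHC class I 0.29, MHC class II 1.66 and checkpoint ligands 0.16. Also with the score, mTORC1 complex turned to −0.0866, hypoxia-induced genes to 0.35, Rac1 regulators to −0.15 and heat shock proteins to 0.35. The Rac1 regulators also turned with RLE (−0.0304), upper-quartile scaling (−0.0589), DESeq2 (−0.0302) and the 6 samples alone (−0.0163). The sphingolipid list turned with upper-quartile scaling (−0.0212) and the 6 samples alone (−0.00757). Neutrophil genes turned to −0.96 with the 6 samples alone, and hypoxia-induced genes to 0.00504 without the length trend. The score parts the genotypes without overlap, and the cause was not tested.

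Under IgG a limit of 1 on the log2 difference gave 1649 DEGs, and leaving out 1 sample gave 2578 to 4717. The interaction count was 0 with upper-quartile scaling, 37 with no filter, 295 with DESeq2, 2760 with the replicate block, 7 with the score and 0 to 1182 when 1 sample was left out, and the cause was not tested.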

Other observations

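The 17 tested genes at 0 in all 3 A159V anti-PD1 samples, singled out after their values were seen, were all called lower, which their selection largely fixes, since the filter keeps such genes only where another group is high. Of these, 8 were at 0 in all 6 A159V samples. No tested gene was at 0 in all 3 WT anti-PD1 samples. Beyond those named in the report, the bound was at least 29.8-fold lower for Crocc2, 14.4-fold for P2ry10, 9.06-fold for Il10ra, 7.82-fold for Fgf10 and 7.07-fold for Cxcr4, per library.

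Of the 8 tested erythroid, muscle, fat and skin genes (14 on the list), 1 was higher and 5 lower in A159V, median log2 difference −0.93. The 1 higher and 0 of the 5 lower of these genes held in all 12 fits without 1 sample, and the lower count was 3 without WT replicate 1 or 2, 0 without WT replicate 3 or A159V replicate 2, 2 without A159V replicate 1 and 1 without A159V replicate 3. With voom 1 was lower. Acta1, an actin of skeletal muscle, had 20, 649 and 559 counts in WT and 42, 30 and 42 in A159V samples. Ckm, muscle creatine kinase, had 0, 70 and 170 and 2, 0 and 0. Myh4, a fast muscle myosin, had 0, 98 and 848 and 22, 0 and 2. WT replicates 2 and 3 held most of the muscle counts. The 2 deposited reporter features were at 0 in all samples.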
